A study of Homo sapiens with 14 samples.

Results

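HSP90AA1 and HSP90AB1 are the genes of the cytosolic HSP90 chaperones, and the binding of the heat shock factors HSF1 and HSF2 around them was followed across antibody, heat and cell state. The members are all peaks that overlapped either of 2 windows of the hg19 assembly, chr14:102540000-102612000 around HSP90AA1, on the minus strand with starts near positions 102553400 and 102606000, and chr6:44208000-44227000 around HSP90AB1, on the plus strand with a start near position 44214850. Of 117699 peaks in 12 deposited lists, 23 were members, 7 in the HSP90AA1 window and 16 in the HSP90AB1 window. The windows were set by position and not by measured values.

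The study used chromatin immunoprecipitation followed by sequencing (ChIP-seq) in K562, a human erythroleukemia cell line grown at 37 °C. Cells were freely cycling or arrested in mitosis, and were left without treatment or kept at 42 °C for 30 min, which gives 4 conditions. In each condition chromatin was precipitated with an antibody to HSF1, an antibody to HSF2 or control IgG, which makes 8 HSF lists and 4 IgG lists, and each list came from 1 library. Every library pooled 10 immunoprecipitations, so no group has a replicate, conditions cannot be tested, and all intervals below are 95% intervals of counting error only. The agent used for the mitotic arrest is not given in the sources used here, and both input libraries that served as background, 1 per cell state, came from heat-treated cells. No expression was measured, so the cell line label was not checked against marker genes.

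HSP90 is an abundant ATP-dependent chaperone that folds and stabilises kinases, steroid receptors and other client proteins. HSP90AA1 encodes the alpha isoform, known for induction by stress, and HSP90AB1 the beta isoform, known for high constitutive expression. HSF1 drives the transcription of chaperone genes under heat, and HSF2, its relative, can join it in mixed trimers. Both factors bind heat shock elements, arrays of a 5-base unit that reads GAA in its core on one strand and TTC on the other, with neighbouring units inverted.

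Promoter sequences of RefSeq, on GRCh38.p14, were searched for such arrays in windows of 300 bases, 250 before and 50 after each annotated start. GAANNTTC and TTCNNGAA stood for paired units, and GAANNTTCNNGAA and TTCNNGAANNTTC for 3 units, on both strands, so each match of 3 units also holds overlapping paired units. RefSeq listed 2 starts for HSP90AA1, at positions 102139749 and 102087044 of chromosome 14, which are 52705 bp apart, and 3 starts for HSP90AB1, at positions 44246194, 44247101 and 44247943 of chromosome 6. The upstream bases of 3 of these 5 promoters are shown because 2 of them hold the arrays and the other, at the middle HSP90AB1 start, holds none. Capitals mark 3 units or a separate pair of units, 5′ to 3′ along the gene, and each run ends at the base before the start.
HSP90AA1 start at 102087044: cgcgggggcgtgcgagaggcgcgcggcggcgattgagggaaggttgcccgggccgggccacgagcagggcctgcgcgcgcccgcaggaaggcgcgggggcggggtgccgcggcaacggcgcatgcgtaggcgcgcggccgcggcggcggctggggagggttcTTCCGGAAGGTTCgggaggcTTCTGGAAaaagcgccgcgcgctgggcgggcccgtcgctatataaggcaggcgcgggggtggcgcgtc
HSP90AB1 start at 44247101: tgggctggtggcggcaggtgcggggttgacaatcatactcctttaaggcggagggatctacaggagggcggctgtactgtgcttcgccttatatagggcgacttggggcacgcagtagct
HSP90AB1 start at 44247943: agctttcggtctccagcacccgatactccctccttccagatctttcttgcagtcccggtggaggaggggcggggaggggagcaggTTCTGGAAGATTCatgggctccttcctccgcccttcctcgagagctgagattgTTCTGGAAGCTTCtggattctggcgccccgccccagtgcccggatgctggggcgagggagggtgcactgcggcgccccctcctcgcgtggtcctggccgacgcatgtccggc

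In the HSP90AA1 promoter at 102087044 the 3 units read TTCCGGAAGGTTC, 88 to 76 bases before the start, and a further pair, TTCTGGAA, lies 68 to 61 bases before it. In the HSP90AB1 promoter at 44247943 there were 2 such arrays, TTCTGGAAGATTC at 165 to 153 bases and TTCTGGAAGCTTC at 112 to 100 bases before that start. Counted from the start at 44247101, these 2 arrays lie inside the gene, 677 to 689 bp and 730 to 742 bp downstream. The upstream HSP90AA1 start and the first 2 HSP90AB1 starts had no match to paired units in their windows. Of 35116 RefSeq promoters, 172 (0.490%) held 3 exact units and 13.5% held paired units. When 1 mismatch was allowed the share with 3 units was 6.24%, with 4 matches in the HSP90AA1 promoter and 6 in the HSP90AB1 promoter that hold the arrays. A CCAAT box, present in 34.6% of promoters, occurred only at the upstream HSP90AA1 start among the 5. The exact letters TATAAA, present in 11.5%, occurred at none of them. Variants of these letters were not searched. The printed runs hold tatataagg before the HSP90AA1 start at 102087044 and tatatagg before the HSP90AB1 start at 44247101.

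**Figure D1:**
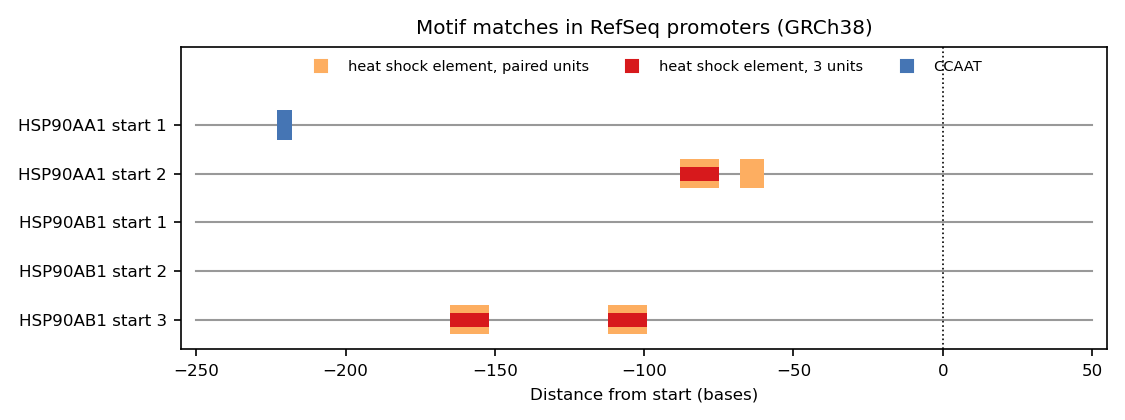
Motif matches in the 5 RefSeq promoters of HSP90AA1 and HSP90AB1 (GRCh38), by distance from the start in bases along the gene, where start 1 is the most upstream start of a gene. Orange boxes are paired units of the heat shock element, red boxes 3 units and blue boxes CCAAT. Red boxes occur at the second HSP90AA1 start, 88 to 76 bases upstream, and at the third HSP90AB1 start, at 165 to 153 and 112 to 100 bases upstream.

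Depth, in tags kept by the peak caller after the removal of duplicates, ranged from 2066373 in the non-treated mitotic IgG library to 28676943 in the non-treated cycling HSF2 library. Up to 1 tag per position was kept in 3 mitotic libraries (both HSF1 libraries and the non-treated IgG library) and up to 2 in the other libraries. Levels are therefore given as tags in a library's own peak per 1000000 kept tags of that library, written CPM. A list without a peak has no value there, and the lowest peak in such a list shows what could be called: 0.831 CPM in the non-treated cycling HSF1 list, 1.30 in the non-treated mitotic HSF1 list, 0.824 in the heat-treated cycling IgG list and 2.90 in the non-treated mitotic IgG list. The heat-treated mitotic IgG list stood apart with 41184 peaks, against 875 to 19866 in the other 11 lists.

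At HSP90AA1, HSF1 and HSF2 peaks met at a single place on the downstream start, and both heat-treated HSF1 libraries had higher levels there than any HSF2 library. Heat-treated cycling HSF1 had 44 tags, 2.63 CPM (1.91 to 3.53), in a peak at chr14:102553133-102553905. Heat-treated mitotic HSF1 had 36 tags, 4.87 CPM (3.41 to 6.75), at chr14:102553110-102554101. Heat-treated HSF2 had 29 tags, 1.49 CPM (0.997 to 2.14), in cycling cells and 40 tags, 1.41 CPM (1.01 to 1.92), in mitotic cells. These HSF2 values lay side by side with overlapping intervals. The fifth list was non-treated mitotic HSF2, with 12 tags, 0.812 CPM (0.419 to 1.42). No peak was listed in the non-treated cycling HSF1, non-treated cycling HSF2 or non-treated mitotic HSF1 lists, or in any of the 4 IgG lists.

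The 5 HSP90AA1 summits fell within 67 bp, between positions 102553408 and 102553475, which is 8 to 75 bp upstream of the start at 102553400 along the gene. HSF2 summits lay 3 bp (non-treated mitotic), 7 bp (heat-treated cycling) and 64 bp (heat-treated mitotic) from the heat-treated cycling HSF1 summit, and the heat-treated mitotic HSF1 summit lay 45 bp from it. On GRCh38 the 3 units of the downstream HSP90AA1 promoter end 76 bases before their start. Coordinates were not converted between the builds, so these distances are set side by side only. The upstream HSP90AA1 start near 102606000 had no peak in any list, and the nearest summit lay 9.53 kb from it.

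HSP90AB1 had a broader site, chr6:44212384-44216195, with 13 peaks from 8 lists, and the highest levels of either gene. Heat-treated cycling HSF1 had 259 tags in 2 peaks, 15.5 CPM (13.6 to 17.5), and heat-treated cycling HSF2 had 183 tags in 1 wide peak, 9.40 CPM (8.08 to 10.9). In heat-treated mitotic cells HSF1 had 73 tags, 9.88 CPM (7.75 to 12.4), and HSF2 had 97 tags, 3.43 CPM (2.78 to 4.18). Non-treated HSF2 had 43 tags, 1.50 CPM (1.09 to 2.02), in cycling cells and 13 tags, 0.879 CPM (0.468 to 1.50), in mitotic cells. HSF1 was not listed in non-treated cells of either state. Unlike HSP90AA1, the site also had IgG peaks: 61 tags in 3 peaks, 3.39 CPM (2.59 to 4.36), in the heat-treated mitotic list, and 20 tags, 1.35 CPM (0.828 to 2.09), in the non-treated cycling list.

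In order, the HSP90AB1 levels ran from heat-treated cycling HSF1 through heat-treated mitotic HSF1, heat-treated cycling HSF2, heat-treated mitotic HSF2, heat-treated mitotic IgG, non-treated cycling HSF2 and non-treated cycling IgG to non-treated mitotic HSF2. Among these neighbours the intervals overlapped between heat-treated mitotic HSF1 and heat-treated cycling HSF2, between the heat-treated mitotic HSF2 and IgG lists, and among the lowest 3 lists. The HSP90AA1 order ran from heat-treated mitotic HSF1 through heat-treated cycling HSF1, heat-treated cycling HSF2 and heat-treated mitotic HSF2 to non-treated mitotic HSF2. The intervals of each neighbouring pair overlapped, and the ratios of neighbours, with intervals of their own, are given with each comparison.

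**Figure D2:**
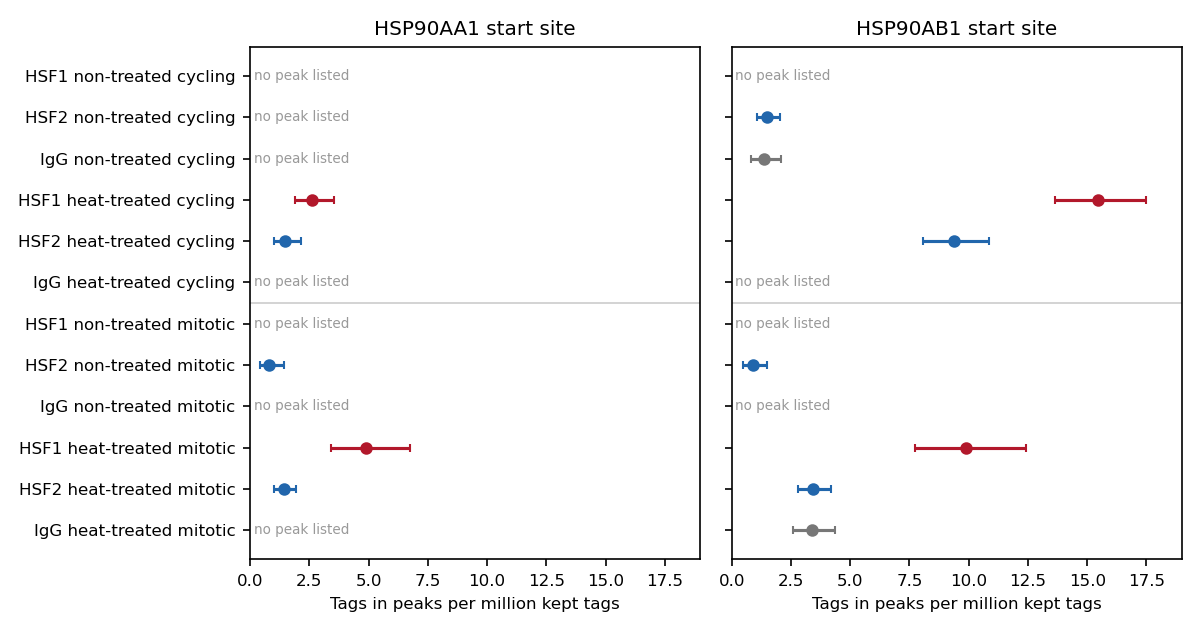
Tags in peaks per 1000000 kept tags (CPM) at the HSP90AA1 and HSP90AB1 start sites in the 12 libraries (1 per group), with HSF1 in red, HSF2 in blue and IgG in grey; points are the values, bars the exact Poisson 95% intervals, and a list without a peak is marked as such. The highest points are heat-treated cycling HSF1 at HSP90AB1 (15.5) and heat-treated mitotic HSF1 at HSP90AA1 (4.87).

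The HSP90AB1 peaks of the HSF lists formed 2 clusters of summits on either side of the start. Upstream, 3 HSF lists had summits within 21 bp of each other, 645 to 666 bp before the start: heat-treated cycling HSF1, heat-treated mitotic HSF1 and heat-treated mitotic HSF2. Downstream, 6 HSF lists had summits within 207 bp, 525 to 732 bp after the start. The 2 heat-treated cycling HSF1 peaks, chr6:44213800-44214811 and chr6:44214900-44216195, were separated by 88 bp with summits 1395 bp apart. In heat-treated mitotic HSF1 the gap was 206 bp and the summits were 1329 bp apart. Heat-treated cycling HSF2 had 1 peak across both clusters, chr6:44213769-44216103, with its summit 682 bp after the start, so its tags could not be divided between them. The division into clusters was chosen after the values were seen.

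The 2 clusters did not have the same balance in each library. Heat-treated cycling HSF1 had 108 tags upstream, 6.45 CPM (5.29 to 7.79), and 151 downstream, 9.02 CPM (7.64 to 10.6), a ratio of downstream to upstream tags of 1.40 (1.08 to 1.81). Heat-treated mitotic HSF1 had 39 upstream, 5.28 CPM (3.76 to 7.22), and 34 downstream, 4.60 CPM (3.19 to 6.43), a ratio of 0.872 (0.534 to 1.42). Heat-treated mitotic HSF2 had 60 upstream, 2.12 CPM (1.62 to 2.73), and 37 downstream, 1.31 CPM (0.921 to 1.80), a ratio of 0.617 (0.398 to 0.944). The downstream cluster thus held more tags in heat-treated cycling HSF1 and fewer in heat-treated mitotic HSF2, while the interval of heat-treated mitotic HSF1 included 1. Non-treated HSF2 had a peak in the downstream cluster only, in both cell states.

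Downstream summits of non-treated cycling HSF2 (677 bp after the start), heat-treated cycling HSF2 (682 bp), heat-treated mitotic HSF1 (684 bp), heat-treated cycling HSF1 (729 bp) and heat-treated mitotic HSF2 (732 bp) spanned distances close to those of the 2 arrays of 3 units after the RefSeq start at 44247101. The other downstream HSF summit, of non-treated mitotic HSF2, lay 525 bp after the start, and the heat-treated mitotic IgG summit 782 bp after it. Summit distances were counted on hg19 from the start near 44214850, and array distances on GRCh38. Coordinates were not converted between the builds, so these distances are set side by side only. The summits of the upstream cluster lie outside all 3 searched HSP90AB1 promoter windows if the middle RefSeq start is taken as the start near 44214850. With that choice the peaks of the cluster reach into searched windows, but the letters at its summits were not analysed here.

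**Figure D3:**
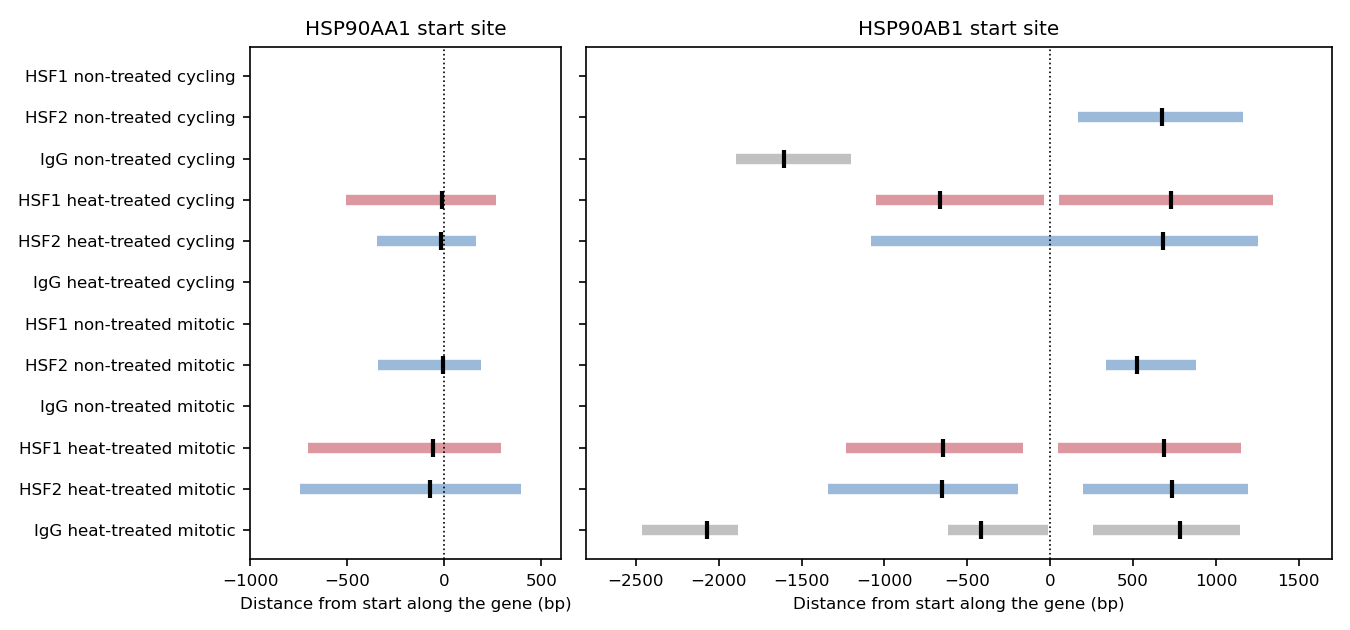
Peaks at the HSP90AA1 and HSP90AB1 start sites by library, drawn to scale as bars by distance in bp from the start along the gene (dotted line), with HSF1 in red, HSF2 in blue, IgG in grey and the summit of each peak as a black tick. HSP90AA1 summits of 5 lists stack within 67 bp, whereas HSP90AB1 has an upstream and a downstream cluster and 1 heat-treated cycling HSF2 peak across both.

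The first comparison was heat against no treatment. HSF1 at both genes was listed after heat and not before it, in cycling and in mitotic cells. The background was taken from peaks with an authors' fold over input of at least 10, called strong peaks. Of the 285 strong peaks of heat-treated cycling HSF1, 5.61% overlapped a peak of the non-treated cycling HSF1 list, and 0 of the 3 HSP90 peaks among them did. No such share was taken for HSF1 in mitotic cells, so the absence there has no background. The non-treated mitotic HSF1 library kept 6164898 tags, and its lowest peak had 1.30 CPM. For HSF2 the HSP90AB1 site allowed a ratio: heat-treated over non-treated was 6.27 (4.47 to 8.95) in cycling cells and 3.90 (2.18 to 7.58) in mitotic cells. The mitotic ratio sets heat-treated peaks in both clusters against a non-treated peak in the downstream cluster only. Within the downstream cluster it was 1.49 (0.772 to 3.05), an interval that includes 1, and 0.812 per kb. In cycling cells no such ratio could be taken, because the heat-treated cycling HSF2 peak covered both clusters over 2335 bp and the non-treated one the downstream cluster over 997 bp. Per kb of peak the cycling ratio was 2.68 and the mitotic ratio 0.988, on the other side of 1, and with the highest peak's depth-scaled fold, which is the authors' fold over input multiplied by input tags over ChIP tags, they were 3.06 and 2.06. At HSP90AA1 the mitotic HSF2 ratio of heat-treated over non-treated was 1.74 (0.896 to 3.65), an interval that includes 1, and it fell below 1 per kb (0.809) and by depth-scaled fold (0.870). In cycling cells HSF2 at HSP90AA1 was listed after heat only. Of the 156 heat-treated cycling HSF2 peaks with a fold of at least 10, 18.6% overlapped a non-treated cycling HSF2 peak, and of the 2 HSP90 peaks among them the HSP90AB1 peak did. With a reciprocal overlap of 50%, 16.0% of the strong peaks and 0 of the 2 did. The authors' false discovery rate for that non-treated HSP90AB1 peak was 28.99%.

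HSF1 and HSF2 peaks overlapped at both genes after heat. All 3 heat-treated cycling HSF1 peaks overlapped a heat-treated cycling HSF2 peak, as did 98.2% of HSF1 peaks with a fold of at least 10. By a reciprocal overlap of 50% or by summits within 250 bp, 2 of the 3 did, against 96.8% and 97.5% of the strong peaks. In the other direction both HSF2 peaks had an HSF1 partner, against 99.4% of such HSF2 peaks. In CPM, HSF1 over HSF2 in heat-treated cycling cells was 1.77 (1.08 to 2.93) at HSP90AA1 and 1.65 (1.36 to 2.00) at HSP90AB1. The HSP90AA1 ratio was 1.16 per kb of peak. A ratio above 1 was found at 92.5% of 279 places strong for HSF1 and at 76.1% of 155 places strong for HSF2. The medians were 1.50 and 1.24. The first set was chosen by the HSF1 list, the numerator of the ratio, and the second by the HSF2 list, its denominator. The part of these choices in the shares and medians was not tested. Among the places strong for HSF1, HSP90AA1 ranked 70 and HSP90AB1 103 from the highest ratio. The order of the genes turned round on the other scales, with HSP90AA1 at 235 per kb and 181 by depth-scaled fold, and HSP90AB1 at 94 and 77. In heat-treated mitotic cells HSF1 over HSF2 was 3.45 (2.14 to 5.55) at HSP90AA1 and 2.88 (2.10 to 3.95) at HSP90AB1. With total tags, counted before duplicate removal, these were 2.71 and 2.27. No ratio over all places was taken for this pair. The median peak had 1.49 CPM in the mitotic HSF1 list and 0.742 in the mitotic HSF2 list. These libraries kept 7385467 and 28299989 tags, with up to 1 and up to 2 per position. The HSF1 and HSF2 antibodies differ, and their part in these ratios was not tested. Nor was the part of depth and duplicate removal in the mitotic ratios.

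The next comparison was mitotic against cycling cells after heat. At HSP90AA1 the HSF1 ratio of mitotic to cycling CPM was 1.85 (1.16 to 2.95), and the HSF2 ratio was 0.949 (0.574 to 1.59). The HSF1 value was 1.32 with total tags, counted before duplicate removal, 1.44 per kb and 1.13 by depth-scaled fold. The HSF2 value was 0.858 with total tags, 0.425 per kb and 0.382 by depth-scaled fold. At HSP90AB1 the ratio was below 1 for both factors, 0.639 (0.486 to 0.831) for HSF1 and 0.365 (0.282 to 0.469) for HSF2. Within HSP90AB1, HSF1 in the upstream cluster had a ratio of 0.818 (0.552 to 1.19), which was 1.10 by depth-scaled fold, and in the downstream cluster 0.510 (0.341 to 0.744). The upstream interval includes 1 and the downstream interval lies below it. Without heat, the HSF2 ratio of mitotic to cycling at HSP90AB1 was 0.586 (0.289 to 1.11), and it passed 1 per kb of peak (1.07).

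Both genes had a mitotic peak of each factor after heat. For HSF1, 55.1% of the 285 strong peaks overlapped a heat-treated mitotic HSF1 peak, and all 3 HSP90 peaks did. For HSF2, 51.9% of 156 did, and both HSP90 peaks did. With a reciprocal overlap of 50%, 46.2% of the strong HSF2 peaks and 0 of the 2 HSP90 peaks kept a mitotic HSF2 partner, while all 3 HSP90 peaks of HSF1 kept theirs. Over the 157 places with a strong cycling HSF1 peak and a mitotic partner, the median ratio of mitotic to cycling was 0.510, the quartiles were 0.407 and 0.635, and 6.37% had a ratio above 1. HSP90AA1 ranked 2 from the highest, the upstream HSP90AB1 cluster 20 and the downstream cluster 78. The places were chosen as strong in the cycling list, which is the denominator of the ratio, and the part of that choice in the low median and the few ratios above 1 was not tested. Without that choice 1053 of 6447 heat-treated cycling HSF1 peaks (16.3%) and 645 of 4315 HSF2 peaks (14.9%) had a mitotic partner. Ratios were not taken over these larger sets. Over the 81 places with a strong cycling HSF2 peak and a mitotic partner, the median was 0.271 and 2.47% had a ratio above 1. HSP90AA1 ranked 4 and HSP90AB1 16 from the highest. The ranks moved with the scale. For HSF1, HSP90AA1 ranked 7 both per kb and by depth-scaled fold, the upstream HSP90AB1 cluster 59 and 9, and the downstream cluster 121 and 40. For HSF2, HSP90AA1 ranked 19 and 14, and HSP90AB1 26 and 4. The places share their libraries, so these ranks are a description. Depth and duplicate removal moved with the HSF1 comparison. The cycling library kept all of its 16735990 tags, with up to 2 per position, and the mitotic library 7385467 of 10389953, with up to 1. The part of depth and duplicate removal in the ratios was not tested. The mitotic lists also carry another style of alignment name than the HSF lists of cycling cells, so a difference in processing and the cell state cannot be told apart.

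**Figure D4:**
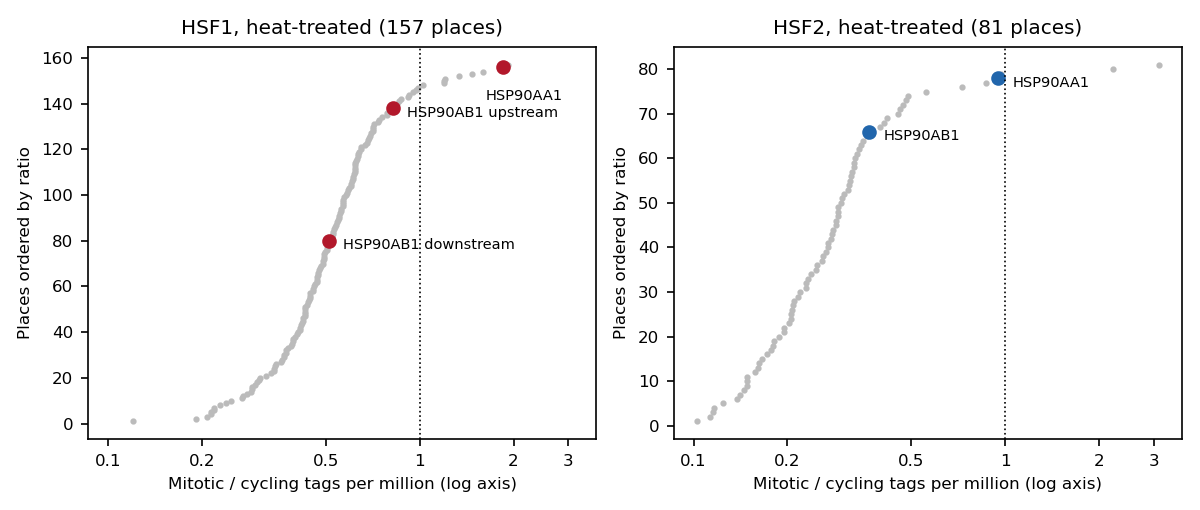
Ratio of mitotic to cycling CPM after heat (log axis) against the order of the places, for 157 strong heat-treated cycling HSF1 peaks (fold of at least 10) and 81 strong HSF2 peaks with a mitotic partner; each small grey point is a place, large points are HSP90 places, and the dotted line is a ratio of 1. HSP90AA1 lies near the top for HSF1 (1.85) and at 0.949 for HSF2, and the downstream HSP90AB1 cluster lies at the HSF1 median of 0.510.

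Each IgG list gives the background of its own cells. The heat-treated cycling IgG list had no peak in either window, and 1.75% of strong HSF1 peaks and 3.85% of strong HSF2 peaks of those cells overlapped any of its peaks. The heat-treated mitotic IgG list overlapped 19.3% and 22.4% of these cycling peaks, and its share over mitotic HSF peaks was not taken. That IgG list had peaks at 2 of the 3 strong cycling HSP90 peaks of HSF1 and 1 of the 2 of HSF2, in every case at HSP90AB1. Its upstream peak, chr6:44214235-44214834, had 16 tags, 0.890 CPM (0.509 to 1.45), with a summit 418 bp before the start and 248 bp from the heat-treated cycling HSF1 summit. Its downstream peak, chr6:44215108-44215993, had 31 tags, 1.72 CPM (1.17 to 2.45), with a summit 782 bp after the start. The IgG downstream summit lay 53 bp from the heat-treated cycling HSF1 summit. The upstream one lay farther from its HSF1 summit, just within the 250 bp that joined summits into a cluster. Its other peak, chr6:44212384-44212969, with 14 tags, and the non-treated cycling IgG peak, with a summit 1604 bp before the start, were near no HSF summit.

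Against this IgG background in heat-treated mitotic cells, HSF1 at HSP90AB1 was 2.91 times as high (2.05 to 4.16) and HSF2 was 1.01 times (0.726 to 1.42), a value that ran from 0.976 per kb through 1.10 by depth-scaled fold and 1.18 with total tags to 1.31 when the IgG peak near no HSF summit was left out. Without that peak the HSF1 ratio was 3.78. By cluster, HSF1 over IgG was 5.93 (3.24 to 11.4) upstream and 2.67 (1.59 to 4.49) downstream. HSF2 over IgG was 2.38 (1.35 to 4.43) upstream and 0.758 (0.458 to 1.26) downstream. Per kb of peak the upstream ratios were 3.32 and 1.24. The heat-treated mitotic HSF2 level in the downstream cluster was therefore not distinguishable from the IgG level at this depth. In the upstream cluster the HSF2 peak covered 1150 bp and the IgG peak 600 bp, and the HSF2 ratio per kb lay below the interval of the ratio in tags, so no difference from IgG is read from it. In non-treated cycling cells HSF2 over IgG was 1.11 (0.637 to 1.99), 1.60 with total tags and 0.769 per kb. The peaks of these lists did not overlap, and IgG had no peak at the HSF2 place. The ratio therefore does not set HSF2 against a background at the same place.

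The 2 genes were also set against each other within each library. HSP90AB1 over HSP90AA1 in tags was 5.89 (4.26 to 8.30) for HSF1 and 6.31 (4.25 to 9.69) for HSF2 in heat-treated cycling cells. In heat-treated mitotic cells it was 2.03 (1.34 to 3.11) and 2.43 (1.66 to 3.60), and in non-treated mitotic HSF2 it was 1.08 (0.456 to 2.60). In tags the ratio was thus larger in heat-treated cycling than in heat-treated mitotic cells for both factors, an order that for HSF2 turned round on another scale. Its size moved with the scale, since the HSP90AB1 peaks covered 2308 bp in heat-treated cycling HSF1 against 773 bp at HSP90AA1. Per kb of peak the ratios were 1.97 and 1.38 in heat-treated cycling cells, and 0.924, on the other side of 1, and 1.28 in heat-treated mitotic cells. By the highest peak's depth-scaled fold the HSF1 ratio was 1.80 in heat-treated cycling and 1.36 in heat-treated mitotic cells, the HSF2 ratio was 1.34 in heat-treated cycling and 1.87 in heat-treated mitotic cells, and the non-treated mitotic HSF2 ratio was 0.789.

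The authors' fold enrichment over input ranks the same peaks within each list. Heat-treated cycling HSF1 had folds of 23.75 and 18.52 at the downstream and upstream HSP90AB1 peaks, ranks 25 and 49 of 6447, and 13.18 at HSP90AA1, rank 133. In heat-treated cycling HSF2 the HSP90AB1 peak ranked 54 of 4315 with a fold of 14.06 and the HSP90AA1 peak 132 with 10.47. HSP90AB1 thus stood above HSP90AA1 in both cycling lists. In heat-treated mitotic HSF1 the upstream HSP90AB1 peak ranked 10 of 4982 with a fold of 8.16, the downstream peak 14 with 6.67, and HSP90AA1 20 with 5.99. Heat-treated mitotic HSF2 had ranks of 11 and 26 of 8270 at HSP90AB1, with folds of 9.86 and 8, and 321 at HSP90AA1 with 5.28. Without heat the HSF2 peak at HSP90AB1 ranked 32 of 875 in cycling cells, with a fold of 6.77, and 10446 of 19866 in mitotic cells, with 2.5, where HSP90AA1 ranked 3161 with 3.17. The IgG downstream HSP90AB1 peak had a fold of 5.67, rank 156 of 41184.

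The other 5 member peaks lay away from the starts and each came from 1 list at its place or overlapped an IgG peak. In the HSP90AA1 window they were a non-treated mitotic HSF2 peak at chr14:102596285-102596877 (13 tags, fold 3.87) and a heat-treated mitotic IgG peak at chr14:102583086-102583850 (16 tags, fold 4.23). The HSP90AB1 window held a heat-treated cycling HSF2 peak at chr6:44211101-44211700 (16 tags, fold 2.65), a non-treated mitotic HSF2 peak at chr6:44224657-44225255 (12 tags, fold 2.53), and a heat-treated mitotic IgG peak over the latter at chr6:44224806-44225833 (27 tags, fold 3.07). Just outside the windows, the nearest peaks to the HSP90AA1 window were a non-treated cycling IgG peak 20.2 kb away (0.813 CPM) and a heat-treated mitotic HSF1 peak 45.5 kb away (1.22 CPM). Those nearest to the HSP90AB1 window were a non-treated mitotic HSF2 peak 0.516 kb away (0.879 CPM) and a heat-treated mitotic IgG peak 0.683 kb away (1.00 CPM).

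Among the 285 strong heat-treated cycling HSF1 peaks, 7 others had peaks in the same 5 lists as HSP90AA1 and in no other list. By the Euclidean distance of log2 CPM over these 5 lists, the closest was chr21:33031176-33032254, at 1.10, with 2.93 CPM in heat-treated cycling HSF1, 1.95 in heat-treated cycling HSF2, 0.947 in non-treated mitotic HSF2, 2.71 in heat-treated mitotic HSF1 and 0.989 in heat-treated mitotic HSF2. Its heat-treated mitotic HSF1 level was thus below its cycling level. The next place was chr12:133286847-133287423, at 1.45, with 2.03 CPM in heat-treated cycling HSF1 and 2.71 in heat-treated mitotic HSF1, the same order as at HSP90AA1. It was followed by chr11:64084467-64085621, at 1.69. The upstream HSP90AB1 peak likewise shared its 5 lists with 7 others, of which chr6:157040519-157042008 was closest, at 0.92, and chr2:70369541-70370408 next, at 2.26. For these distances the upstream peak was given all 183 tags (9.40 CPM) of the heat-treated cycling HSF2 peak that covers both clusters. The downstream HSP90AB1 peak, which had partners in 6 other lists, shared that set with 0 others.

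The other genes of the HSP90 and HSP70 chaperone pathway were compared through their promoter letters. Of a list of 15, 14 were in the RefSeq table, with 20 promoters. HSPA8, the constitutive cytosolic HSP70, and HSPD1, the mitochondrial HSP60, held 3 units, and HSPD1 was the only one with 4 (12 of all 35116 promoters held 4). Paired units, present in 13.5% of all promoters, occurred in 7 of the 20 promoters, from 6 genes: HSPA8, HSPD1, the inducible HSP70 genes HSPA1A and HSPA1B, DNAJB1, an HSP40 cochaperone, and STIP1, which links HSP70 to HSP90. HSP90B1 and TRAP1, the HSP90 genes of the endoplasmic reticulum and mitochondria, held neither, like AHSA1, PTGES3, CDC37, FKBP5, HSPH1 and HSPE1. With 1 mismatch allowed, a match in 6.24% of all promoters, 3 units also occurred at AHSA1, STIP1, PTGES3, HSPA1A, HSPA1B and DNAJB1. They did not at HSP90B1, TRAP1, CDC37, FKBP5, HSPH1 or HSPE1. Over all symbols in the table, 166 of 27305 (0.608%) had a promoter with 3 units, and both cytosolic HSP90 genes were among them.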

How the data were processed

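The authors called peaks with MACS 1.4.1, per the file headers, on each library alone against the input of the same cell state, at a p-value cutoff of 1e-05. The submitters' processing notes name Bowtie and hg19, whereas the alignment names in 5 cycling lists carry bwa. Each deposited list gives, per peak, a count of tags, the authors' score (minus 10 times log10 of p), their fold (the ratio over input) and a false discovery rate in percent. Folds and scores are the authors' own and were used to rank or filter peaks within a list, apart from the depth-scaled fold, an alternative in which the fold was multiplied by input tags over ChIP tags.

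Peaks of different lists that overlapped by at least 1 bp were joined into sites. Tags were divided by kept tags and given per 1000000 (CPM), with exact Poisson intervals, and ratios of 2 libraries were given with exact conditional binomial intervals; these 95% intervals cover counting error only. A peak was strong at a fold of at least 10. Sites with peaks in at least 2 HSF lists, or a fold of at least 5, were described in full. Summits at most 250 bp apart formed a cluster. Like places were the nearest by Euclidean distance among strong peaks in the same lists. The alternatives were total tags, tags per kb of peak, the depth-scaled fold, stricter folds, scores, false discovery rates and overlaps, and 1 mismatch in motifs. The scripts were tested on simulated data. Python 3.11.15, numpy 2.4.6, pandas 2.3.3 and scipy 1.17.1 were used. An hg19 genome or annotation was not used here, so peaks were not assigned to exons or other genes. The members and lists were chosen with earlier results of these data known.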

Additional observations from a re-analysis of the deposited data

Results flagged for a closer look

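At HSP90AA1 after heat, the ratio of mitotic to cycling tags per 1000000 kept tags was 1.85 for HSF1 and 0.949 for HSF2, values on either side of 1. The HSF2 interval (0.574 to 1.59) includes 1, but the HSF2 values per kb (0.425) and by depth-scaled fold (0.382) lay below that interval. Neither a change of HSF2 nor its absence is read from these values. The difference between the factors was not tested, since each group holds 1 library. The HSF1 ratio was 1.32 with total tags, 1.44 per kb and 1.13 by depth-scaled fold, and the HSF2 ratio 0.858, 0.425 and 0.382. Among the strong places HSP90AA1 stood at rank 2 of 157 for HSF1 and rank 4 of 81 for HSF2. Per kb and by depth-scaled fold it ranked 7 and 7 for HSF1, and 19 and 14 for HSF2. These places were chosen as strong in the cycling list, the denominator of the ratio.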

How the results depend on the processing

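Each group holds 1 library, so intervals cover counting error, depth limits what was called, and a missing peak means only that none was listed. No paired analysis was possible because each group has 1 library and no ratio comes from a test. Of the ratios between libraries or genes, 19 of 20 stayed within their intervals with total tags, 16 of 25 per kb of peak and 16 of 25 with the depth-scaled fold. With total tags the HSP90AB1 HSF1 ratio of mitotic to cycling was 0.454. Per kb, HSF2 heat ratios were 0.809 (HSP90AA1, mitotic), 2.68 (HSP90AB1, cycling) and 0.988 (HSP90AB1, mitotic, reversed); HSP90AA1 HSF2 mitotic to cycling was 0.425; upstream HSP90AB1 HSF2 over IgG was 1.24; and HSP90AB1 over HSP90AA1 was 1.97, 1.38, 0.924 (reversed) and 1.28 in heat-treated cycling HSF1 and HSF2 and mitotic HSF1 and HSF2. With the depth-scaled fold the 3 HSF2 heat ratios were 0.870, 3.06 and 2.06, mitotic to cycling was 1.13 and 0.382 at HSP90AA1 and 0.857 and 0.531 at HSP90AB1 (HSF1 and HSF2), and HSP90AB1 over HSP90AA1 in cycling cells was 1.80 and 1.34. The cause of these shifts was not tested.

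At a fold of at least 10, HSP90AA1 kept 2 of 5 HSF lists and HSP90AB1 2 of 6. The upstream HSP90AB1 cluster kept 1 of 3 and the downstream cluster 2 of 6. All were from heat-treated cycling cells, and no IgG list remained (0). Over all peaks, 285 of heat-treated cycling HSF1 and 156 of HSF2 reached that fold, against 6 and 10 in the heat-treated mitotic lists. The median fold after heat was 3.12 in cycling and 1.36 in mitotic HSF1, and 3.49 and 3.87 for HSF2. This cutoff therefore does not compare cycling with mitotic cells. Of the 2 IgG lists at HSP90AB1, 1 remained at a fold of at least 5, 1 at a false discovery rate of at most 5% and 1 with a summit within 250 bp; the upstream cluster had 0 at a fold of at least 5. Strong HSF1 peaks had a partner, by reciprocal overlap of 50% and then with partners of fold at least 5, in 2.81% and 0.702% (HSF1 non-treated), 49.1% and 11.6% (HSF1 mitotic) and 11.2% and 1.40% (IgG mitotic), with 94.4% (HSF2 cycling) and 0% (IgG cycling) at that partner fold. For strong HSF2 peaks these were 8.33% and 3.21% (IgG mitotic), with 1.28% (IgG cycling) and 30.8% (HSF2 mitotic) at that partner fold. With summits within 250 bp the shares were 0.351% (HSF1 with IgG cycling), 9.47% (HSF1 with IgG mitotic) and 10.9% (HSF2 with IgG mitotic). With 1 mismatch, 6.24% of promoters held 3 units. Ranks within a list moved in 13 of 18 cases by score and 17 of 18 by tags.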
